A study of Mus musculus with 8 samples.

Results

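The 45 transcripts described here are markers of cells other than T cells, read in RNA from flow-sorted regulatory T cells (Tregs, CD4 T cells that express Foxp3 and hold immune responses in check). They were listed by name, with earlier results of these data known: 19 myeloid, 7 stromal, 4 endothelial, 4 erythroid, 8 muscle fibre and 3 B cell genes. All 45 were found among the 38406 genes of the deposited count table, 44 by symbol and Spi1 under its older symbol Sfpi1. The Tregs came from spleen and from hind limb muscle of male C57BL/6 mice that were 2 months old (young) or more than 6 months old (aged). Muscle had been injured with 0.9 µg of cardiotoxin, a venom toxin that kills muscle fibres, in each muscle, and both tissues of all 4 groups were taken 4 days after the injury, so no uninjured muscle is included. Each library came from 1500 Tregs sorted in 2 rounds, and each of the 4 groups, named here young or aged spleen and young or aged muscle, had 2 libraries. The labels do not say whether the duplicates of a group came from separate animals or from pools, and the p-values therefore reflect no more than the spread of the duplicates, which may be technical.

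Macrophages and monocytes engulf dead cells and carry lysozyme, complement C1q and Fc receptor adaptor proteins, and they fill injured muscle while it repairs. Fibroblasts lay down collagen there, endothelial cells line vessels, and erythroid cells make haemoglobin and are plentiful in spleen. A transcript of one of these cells in a sorted T cell library can come from a few carried-over cells, from free RNA or from the T cells themselves. In these bulk libraries, fewer cells of a type and less RNA per cell cannot be told apart.

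Several members are near-identical copies of a neighbour, and this bears on how their counts can be read. The lysozyme genes Lyz1 (chromosome 10, 117287797 to 117292868, minus strand) and Lyz2 (117277331 to 117282321, minus strand) differ at 22 of 447 coding bases in GENCODE M21 (GRCm38, which is mm10), and their longest identical run is 118 bases. Coding bases 43 to 132, counted from 1 at the first base of the start codon, hold 13 of the differences, which are in capitals.
Lyz1: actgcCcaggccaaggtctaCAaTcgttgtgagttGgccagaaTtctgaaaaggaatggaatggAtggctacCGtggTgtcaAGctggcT
Lyz2: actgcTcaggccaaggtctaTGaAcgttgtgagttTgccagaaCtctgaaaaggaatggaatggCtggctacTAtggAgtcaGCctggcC
The alpha globin genes Hba-a1 (chromosome 11, 32283511 to 32284465, plus strand) and Hba-a2 (32296489 to 32297298, plus strand) differ at 1 of 429 coding bases, C381T, in capitals at the end of coding bases 292 to 381.
Hba-a1: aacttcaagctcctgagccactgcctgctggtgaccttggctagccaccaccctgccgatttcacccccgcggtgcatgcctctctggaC
Hba-a2: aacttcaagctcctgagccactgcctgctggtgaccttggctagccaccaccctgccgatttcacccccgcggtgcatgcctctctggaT
Reads of such pairs can be split or dropped by the authors' counting, so the separate values of Lyz1 and Lyz2, of Hba-a1 and Hba-a2, and of Hbb-b1 and its copy Hbb-b2 are uncertain. Lyz2 took 45.9% (95% exact interval 41.9 to 49.8) of the Lyz1 and Lyz2 counts in young muscle replicate 1 and 42.1% (29.1 to 55.9) in replicate 2.

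Promoter windows of 300 bases, from 250 before to 50 after a start, were read from RefSeq on GRCm38.p6 for the members it lists, and 1 motif each was searched on both strands for the myeloid, erythroid, stromal and muscle fibre classes. GAGGAA, the core that PU.1 (the product of Spi1, a master regulator of myeloid cells) is known to bind, was in 8 of 14 myeloid genes with a window, namely Apoe, C1qb, C1qc, Cd68, Cst3, Ctss, Cybb and Itgam, against 31.3% of 27025 genes. AGATAA, a motif that the red cell regulator Gata1 binds, was in 1 of 3 erythroid genes against 12.7% of genes, and CCAAT was in 1 of 4 stromal genes against 41.1%. CAGCTG, an E-box of the kind that muscle regulatory factors bind, was in 6 of 8 muscle fibre genes against 18.3%. A match is a description of letters and not a site in use. The windows of C1qb (chr4:136886151-136886450), C1qc (chr4:136892865-136893164) and Fcer1g (chr1:171234300-171234599), all on the minus strand, are shown because these genes were high in the same library, with the PU.1 core in capitals on either strand where it occurs. C1qb and C1qc hold 1 match each and Fcer1g holds none.
C1qb: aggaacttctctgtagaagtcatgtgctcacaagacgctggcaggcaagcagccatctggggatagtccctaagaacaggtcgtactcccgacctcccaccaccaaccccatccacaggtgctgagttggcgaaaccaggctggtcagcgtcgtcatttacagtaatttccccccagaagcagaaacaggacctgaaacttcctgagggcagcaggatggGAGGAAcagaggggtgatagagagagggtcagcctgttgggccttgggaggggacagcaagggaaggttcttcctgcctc
C1qc: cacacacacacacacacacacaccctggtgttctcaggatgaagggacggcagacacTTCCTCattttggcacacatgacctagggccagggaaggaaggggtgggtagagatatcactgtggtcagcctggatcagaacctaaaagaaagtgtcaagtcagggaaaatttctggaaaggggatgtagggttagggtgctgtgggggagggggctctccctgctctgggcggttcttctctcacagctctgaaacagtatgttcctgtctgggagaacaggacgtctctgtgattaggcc
Fcer1g: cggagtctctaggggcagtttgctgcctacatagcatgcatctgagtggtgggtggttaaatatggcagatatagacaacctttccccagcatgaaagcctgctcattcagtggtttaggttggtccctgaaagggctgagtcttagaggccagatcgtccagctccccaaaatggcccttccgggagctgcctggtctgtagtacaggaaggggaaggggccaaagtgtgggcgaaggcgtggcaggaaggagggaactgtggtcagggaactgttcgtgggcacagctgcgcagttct
Atp2a1 (chr7:126463024-126463323, minus strand) was the muscle fibre gene that passed the test between tissues at both ages, and its window holds 1 E-box, in capitals.
Atp2a1: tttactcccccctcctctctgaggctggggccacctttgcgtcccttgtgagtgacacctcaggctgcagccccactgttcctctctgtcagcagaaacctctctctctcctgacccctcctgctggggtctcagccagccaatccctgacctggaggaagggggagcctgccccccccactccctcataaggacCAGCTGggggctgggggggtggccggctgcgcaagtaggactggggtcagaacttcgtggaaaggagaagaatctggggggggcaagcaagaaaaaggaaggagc

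Libraries held 1969982 to 4008622 counts, and the 3 counts that a count of 0 still allows correspond to 0.7315 to 1.487 CPM (counts scaled to a common library size) in a library. Such limits and intervals cover counting error only. The filter on low counts kept 14772 genes, among them 39 of the 45 members. C1qb, Cd14, Dcn, Cdh5, Acta1 and Ckm did not pass and are given as counts. Beside the sort label, 11 T cell and Treg genes were read, whose summed level was 5860 to 7519 CPM, highest in young muscle replicate 1. Foxp3 was 15.4 to 41.1 CPM in the other libraries and 24.4 CPM in that library. Without Ctla4, an inhibitory receptor of Tregs that took 2455 CPM in that library, the sum was 5065 CPM there, 4550 to 5812 CPM in the other 3 muscle libraries and 6295 to 6515 CPM in spleen. The 45 markers together made up 0.0646% to 0.121% of the counts in 7 libraries and 0.238% in young muscle replicate 1. That library stood apart: it was the highest of the 8 for 23 of 45 members (51.1%), against 14.4% of all genes tested. Where it is left out, young muscle is 1 library, which is then assumed to vary like the other groups.

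**Figure D1:**
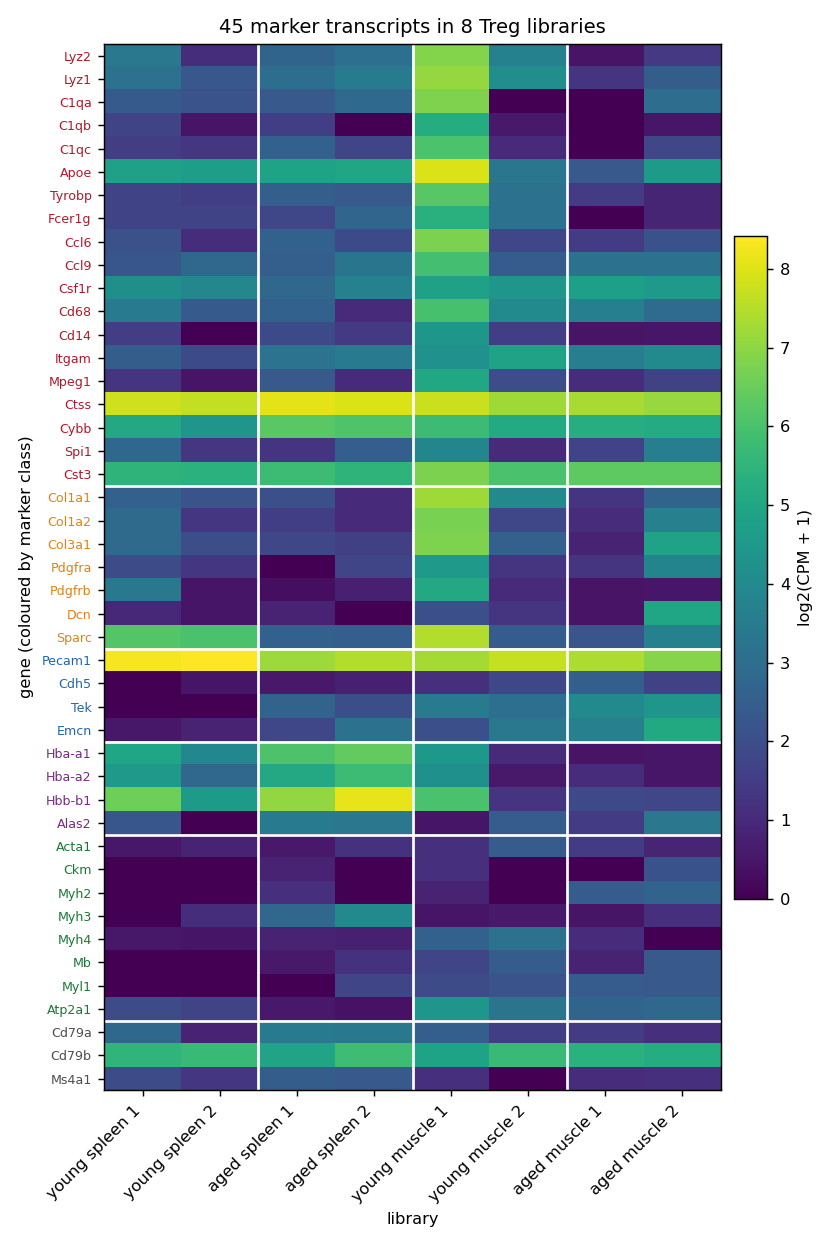
Level of each of the 45 marker transcripts (vertical axis, coloured by class) in each of the 8 libraries (horizontal axis), as log2(CPM + 1) on the colour scale. Young muscle replicate 1 is the brightest column for most myeloid and stromal genes, and the globins are brightest in aged spleen.

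The 19 myeloid members summed to 1541 CPM in young muscle replicate 1. They summed to 376 CPM in young muscle replicate 2, 348 and 362 CPM in aged muscle, 409 and 329 CPM in young spleen, and 497 and 466 CPM in spleen of aged mice. Young muscle replicate 2 thus lay within the range of the other 6 libraries. Ctss, which encodes the lysosomal protease cathepsin S, was the member with the most counts, and without it the sum was 777 ± 775 CPM in young muscle (SD, n = 2) and 206 ± 26.5 CPM in aged muscle.

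**Figure D2:**
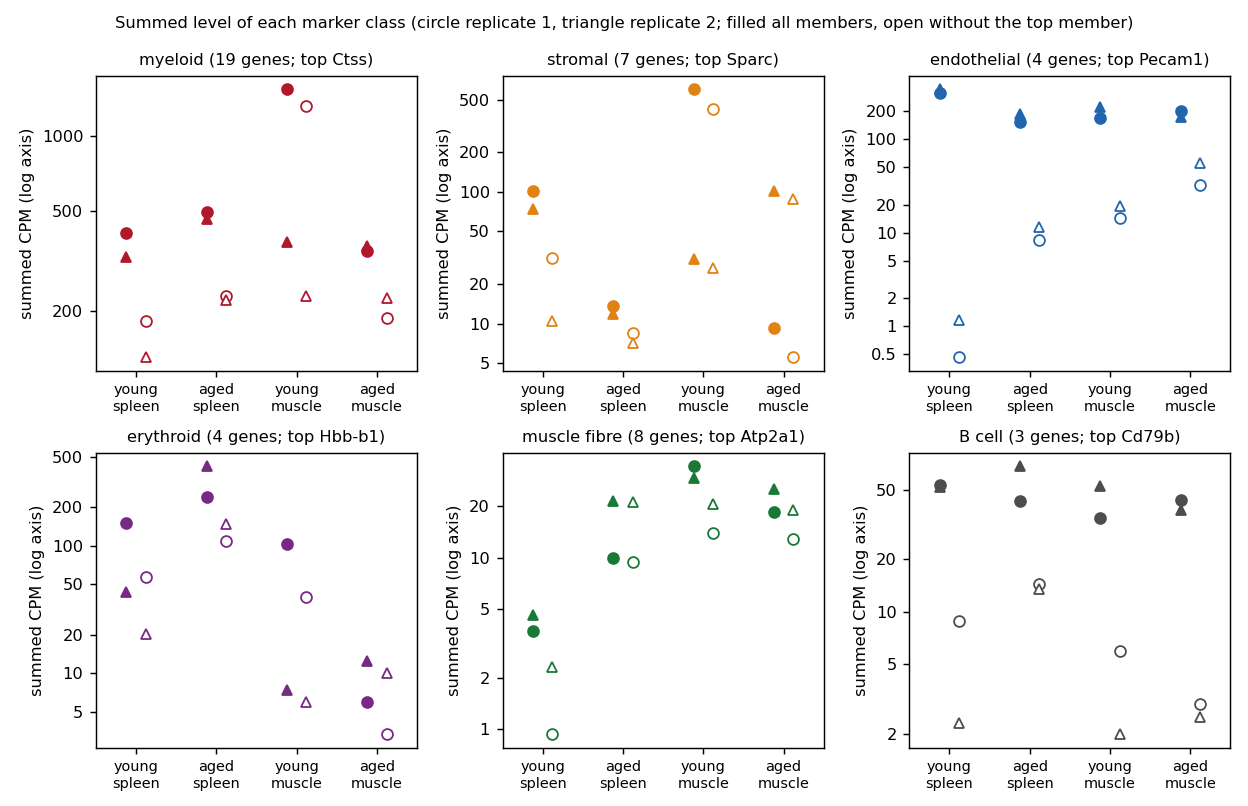
Summed CPM of each marker class (vertical log axis) in the 4 groups (horizontal axis), with 1 point per library, circles for replicate 1 and triangles for replicate 2. Filled points hold all members and open points leave out the member of highest count. Young muscle replicate 1 is 1541 CPM for the myeloid class, where the other libraries are 329 to 497 CPM.

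The members fell into 2 sets when young muscle replicate 1 was set against the median of the other 7 libraries, a split made after the values were seen. For 14 genes it was 6.12 to 87.3 times that median, and their sum was 1117 CPM there against 32.55 to 86.08 CPM elsewhere. For Csf1r, Itgam, Ctss, Cybb and Cst3 it was 1.09 to 1.98 times the median, and their sum was 424 CPM there against 276 to 413.2 CPM elsewhere. These 5 genes supplied most of the myeloid counts in every other library, and Ctss alone held 37.9% to 60.4% of them there against 14.0% in young muscle replicate 1.

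**Figure D3:**
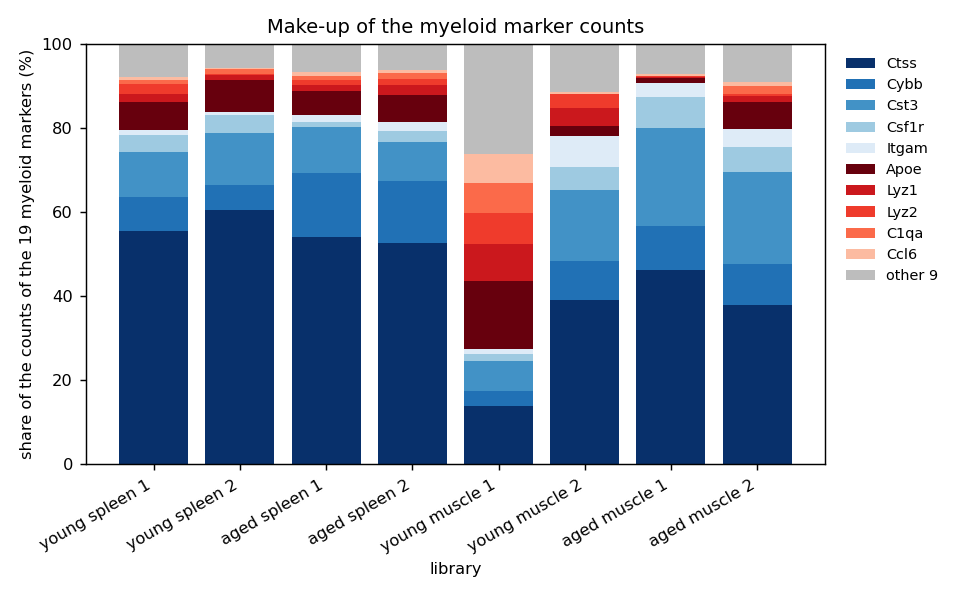
Share of the counts of the 19 myeloid markers (vertical axis, percent) taken by each gene in each library (horizontal axis). Ctss holds 37.9% to 60.4% in 7 libraries and 14.0% in young muscle replicate 1.

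Complement C1q, which tags dead cells for removal and is made by macrophages, has 3 chains encoded by C1qa, C1qb and C1qc. C1qa had 275 counts in young muscle replicate 1 and 0 in replicate 2, 0 and 17 in aged muscle, 9 and 9 in young spleen, and 17 and 19 in spleen of aged mice. C1qb had 91 counts in that library and at most 8 elsewhere, and C1qc had 161 and at most 21. All 3 chains were therefore high in 1 library of young muscle and at or near 0 in its duplicate, and the groups overlapped.

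The lysozyme genes were also highest in that library, and second highest in its duplicate. Lyz2 was 115 CPM in young muscle replicate 1 and 11.9 CPM in replicate 2, 0.370 and 1.67 CPM in aged muscle, 9.32 and 1.16 CPM in young spleen, and 5.61 and 7.43 CPM in spleen of aged mice. Lyz1 was 136 and 16.4 CPM in young muscle and 1.48 and 4.58 CPM in aged muscle. For both genes the 2 young muscle libraries lay above the 2 aged ones, with a gap of several fold between the young libraries themselves.

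Tyrobp (also called DAP12) and Fcer1g encode adaptors that signal for activating receptors of myeloid and natural killer cells. Tyrobp had 184 and 16 counts in young muscle, 5 and 2 in aged muscle, 5 and 5 in young spleen, and 20 and 12 in spleen of aged mice. Fcer1g had 99 and 16 counts in young muscle, 0 and 2 in aged muscle, 5 and 6 in young spleen, and 10 and 17 in spleen of aged mice. Both were lower in aged than in young muscle with no overlap, as were 13 members in all, against 20.4% of all genes tested, while 4 were higher with no overlap, against 20.9%.

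Between ages in muscle, these were the 2 members that passed the test, both lower in aged mice, against 0.88% of all genes tested called lower, and 0 of 39 were called higher, against 1.14%. At an unadjusted p under 0.05, 14 members were lower, against 7.69% of all genes, and 1 higher, against 7.6%, by edgeR. DESeq2 called 7 lower, against 1.72%, and 0 higher, against 1.65%. Tyrobp fell by 4.86 ± 0.96 on the log2 scale (SE; edgeR quasi-likelihood test, adjusted p = 0.0215). For Fcer1g, 115 counts in the young against 2 in the aged muscle libraries gave a scaled ratio of 64.9 with a counting interval of 17.6 to 543 (edgeR adjusted p = 0.0158). The median log2 fold change was -2.01 over the 39 members and 0.03 over all genes tested.

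Without young muscle replicate 1, with the same genes tested, 0 of 39 members passed for age in muscle by edgeR, against 0.663% of all genes higher and 0.332% lower, and the members' median was 0.22. The direction turned for 15 of the 39, among them 9 of 17 myeloid and 4 of 6 stromal genes. The adjusted p was 0.467 for Tyrobp and 0.27 for Fcer1g in that fit. Leaving out young muscle replicate 2 instead gave 20 of 43 tested members called lower, against 2.92% of all genes in that fit. Both calls were also lost without aged muscle replicate 1 and with only the groups compared. The Tyrobp call was lost too without any 1 of the 4 spleen libraries or without aged muscle replicate 2 (adjusted p up to 0.517).

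Chemokines, surface receptors and lysosomal genes split between the 2 sets. Ccl6, a chemokine that attracts monocytes, was 107 CPM in young muscle replicate 1 and 1.16 to 5.12 CPM in the other libraries, and Ccl9 was 59.5 CPM against 3.73 to 8.78 CPM. Apoe, a lipid carrier of macrophages, was 249 CPM there, 8.92 CPM in its duplicate and 4.07 to 30.04 CPM in the rest. Cd68, a lysosomal glycoprotein, had 153 and 30 counts in young muscle against 31 and 16 in aged.

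Csf1r, the receptor for macrophage colony-stimulating factor, was flat by comparison, with 27.6 and 20.8 CPM in young muscle and 26.3 and 22.1 CPM in aged muscle. Itgam, the CD11b integrin chain, was 18.4 CPM in young muscle replicate 1 and 27.8 CPM in replicate 2. Spi1 had 34 counts in young muscle replicate 1, 27 in aged muscle replicate 2 and 2 to 14 in the other 6 libraries. Mpeg1, which encodes the pore-forming protein perforin-2, had 81 counts in young muscle replicate 1 and 1 to 17 elsewhere, and Cd14, a receptor for bacterial lipopolysaccharide, had 52 and 0 to 11.

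**Figure D4:**
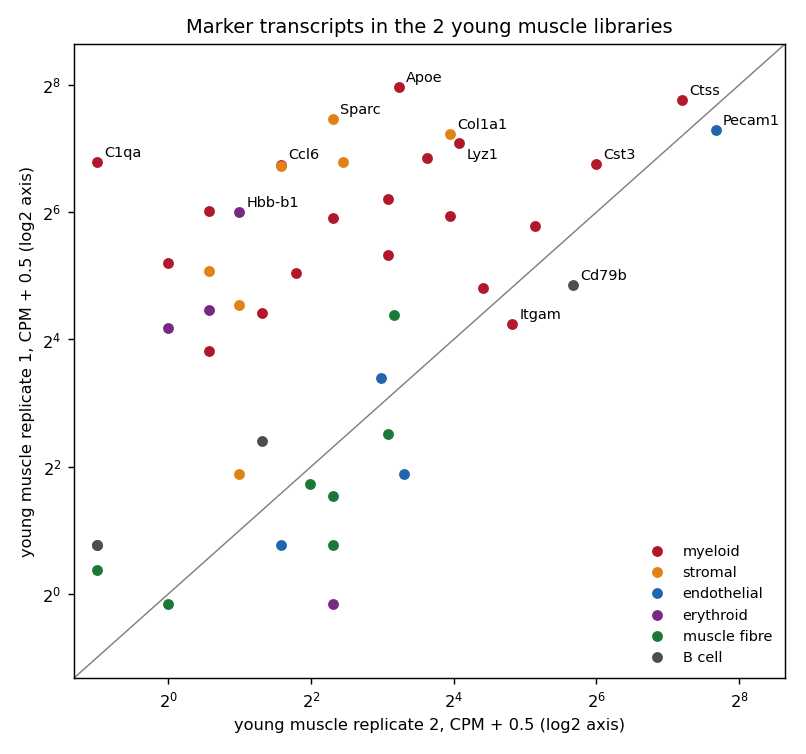
CPM + 0.5 of each marker in young muscle replicate 1 (vertical, log2 axis) against replicate 2 (horizontal, log2 axis), coloured by class, with the line of equality. Most myeloid and stromal points lie far above the line (C1qa 110 against 0 CPM), while Ctss (216 against 147 CPM) lies near it and Pecam1 (156 against 203 CPM) and Itgam lie below it.

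Between tissues in young mice, 11 of 39 members were higher in muscle, against 11.4% of all genes tested, and 1 was lower, against 10.9%. The median log2 fold change was 2.49 over the members and 0.067 over all genes. The higher ones were 7 myeloid genes (Lyz1, Tyrobp, Fcer1g, Cd68, Itgam, Mpeg1 and Cst3), Col1a1, the endothelial genes Tek and Emcn, and the muscle gene Atp2a1. Tyrobp was higher by 4.25 ± 0.92 on the log2 scale (edgeR adjusted p = 0.00588), Mpeg1 by 4.30 ± 1.22 (0.0217) and Cst3, which encodes the protease inhibitor cystatin C, by 1.04 ± 0.26 (0.0104). Groups did not overlap for 17 members higher and 2 lower in young muscle, against 31.4% and 30.2% of all genes.

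Leaving out young muscle replicate 1, with the genes held, cut the higher calls in young mice to Itgam, Tek and Emcn, against 12.8% of all genes, and raised the lower ones to 5, against 11%. Itgam was 18.4 and 27.8 CPM in young muscle against 4.66 and 2.70 CPM in young spleen. It was higher by 2.65 ± 0.57 on the log2 scale (edgeR adjusted p = 0.00384) with all libraries and by 2.92 (0.00274) without that library. Itgam was thus the 1 myeloid member whose call between young tissues did not rest on young muscle replicate 1, and leaving out young spleen replicate 2 gave an adjusted p of 0.0563. The calls of the other 6 myeloid genes, Col1a1, Emcn and Atp2a1 were each lost when either young spleen library was left out. Those of Lyz1 and Col1a1 were lost without any 1 library other than young muscle replicate 2, that of Cd68 without either aged muscle library, that of Atp2a1 without either aged spleen library and that of Emcn without young muscle replicate 2. Over the single libraries left out in turn, the higher calls ranged from 1 without young spleen replicate 2, against 4.87% of all genes in that fit, to 22 without young muscle replicate 2, against 8.7%.

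Between tissues in aged mice, 3 members were higher in muscle, against 9.57% of all genes tested, and 4 were lower, against 9.27%. Their median was -0.16, against 0.03 over all genes. Csf1r was 26.3 and 22.1 CPM in aged muscle against 6.09 and 12.2 CPM in spleen of aged mice, higher by 1.43 ± 0.44 on the log2 scale (edgeR adjusted p = 0.0334). Ctss fell by 0.78 ± 0.19 (0.0107), from 268 and 245 CPM in spleen of aged mice to 160 and 137 CPM in aged muscle. Groups did not overlap for 9 members higher and 13 lower, against 32.8% and 32.6% of all genes. The Csf1r call was lost without any 1 of the 4 spleen or 2 aged muscle libraries, and the Ctss call without aged spleen replicate 1 or aged muscle replicate 2. Young muscle replicate 1 is in neither group but shares the estimate of spread. Without it, with the genes held, 5 members were higher, against 14.1% of all genes, and 6 lower, against 12.5%. Without aged spleen replicate 1, 0 members were called by edgeR, against 2.82% of all genes higher and 3.06% lower.

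Cybb, the gp91phox subunit of the phagocyte oxidase, rose with age in spleen. It was 33.1 and 20.1 CPM in young and 76.1 and 68.5 CPM in spleen of aged mice, higher by 1.46 ± 0.30 on the log2 scale (edgeR adjusted p = 0.0111), and 54.4, 34.7, 36.6 and 35.0 CPM in the 4 muscle libraries, the first 2 from young mice. In that comparison 2 of 39 members were higher with age, against 2.08% of all genes, and 1 was lower, against 2.17%. Leaving out either aged spleen library or young spleen replicate 2 ended the Cybb call (adjusted p up to 0.185). The median was 0.68 over the members and 0.046 over all genes, and groups did not overlap for 19 higher and 6 lower, against 28.6% and 24.1% of all genes.

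The age effect itself differed between tissues for Tyrobp, Fcer1g and Cybb, the 3 of 39 members called lower for muscle minus spleen, against 1.17% of all genes, while 0 were called higher, against 1.35%. At an unadjusted p under 0.05, 11 were lower, against 7.1% of all genes, and 1 higher, against 5.9%, by edgeR. DESeq2 called 5 lower, against 1.58%, and 0 higher, against 1.73%. For Cybb the difference was -1.77 ± 0.42 on the log2 scale (edgeR adjusted p = 0.0362). Without young muscle replicate 1 the adjusted p was 0.112 for Cybb, 0.304 for Tyrobp and 0.216 for Fcer1g, and Sparc was the 1 member called, in the other direction, against 1.36% of all genes higher and 0.988% lower. All 3 calls were also lost without young spleen replicate 2, without aged spleen replicate 2 and without aged muscle replicate 1.

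A wider list of 28 macrophage and monocyte genes was read beside the members. Its summed level was 3444 CPM in young muscle replicate 1, 1949 CPM in replicate 2, 1537 and 1449 CPM in aged muscle and 759 to 1036 CPM in spleen. Without Ctsd, its gene of most counts, the sum was 2569 and 1490 CPM in young muscle. It was then 1192 and 1128 CPM in aged muscle and 407 to 609 CPM in spleen. Of 22 tested, 10 were higher in young muscle than in young spleen, against 11.4% of all genes, and 4 in aged muscle than in aged spleen, against 9.57%. Young muscle replicate 1 was the highest library for 19 of the 28, and without it, with the genes held, 6 and 5 were higher, against 12.8% and 14.1%. Ccr2, a chemokine receptor of monocytes and of activated T cells, was higher in young muscle by 4.70 ± 0.19 on the log2 scale (edgeR adjusted p = 2.16e-09). Alone it took 636 CPM of the list's sum in young muscle replicate 1 and 25.1 to 680 CPM in the other libraries. For age in muscle 1 was called, Cebpb, with a log2 fold change of -0.91 ± 0.19 (edgeR adjusted p = 0.0215, and 0.234 without that library).

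The stromal members were high in young muscle replicate 1 too. The 7 genes summed to 599 CPM there and to 30.7 CPM in replicate 2, 9.25 and 100 CPM in aged muscle, 102 and 74.1 CPM in young spleen, and 13.7 and 11.8 CPM in spleen of aged mice. Col1a1 and Col1a2, the chains of type I collagen, had 374 and 263 counts in young muscle replicate 1 and 30 and 5 in replicate 2. Col3a1, the type III collagen chain, had 274 and 10. A further list of 15 fibroblast and matrix genes was 625 CPM in that library and 16.2 to 132 CPM elsewhere.

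Among stromal genes Col3a1, Col1a2 and Pdgfra were second highest in aged muscle replicate 2, while Col1a1 (5.42 CPM) and Pdgfrb (1 count) were not. Dcn, a small proteoglycan that decorates collagen, had 72 counts there, 8 in young muscle replicate 1 and at most 3 in the other 6 libraries. Pdgfra, the platelet-derived growth factor receptor alpha of mesenchymal cells, had 31 counts there, 57 in young muscle replicate 1 and at most 7 elsewhere. Dcn made up 51.8% (95% exact interval 43.2 to 60.3) of the Dcn and Col3a1 counts in aged muscle replicate 2 and 2.84% (1.23 to 5.51) in young muscle replicate 1. Col1a1 was the stromal member called between young tissues, higher in muscle by 4.27 ± 1.17 on the log2 scale (edgeR adjusted p = 0.0417, and 0.211 without young muscle replicate 1).

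Sparc, a matrix glycoprotein also made by platelets, had a pattern of its own. It was 70.8 and 63.7 CPM in young spleen, 5.12 and 4.73 CPM in spleen of aged mice, 175 and 4.46 CPM in young muscle, and 3.70 and 12.1 CPM in aged muscle. Both young spleen libraries were thus more than 10 times either aged spleen library, yet the edgeR adjusted p for age in spleen was 0.373 with all libraries and 2.78e-05 without young muscle replicate 1. The collagen genes Col1a1 and Col3a1 were ordered the same way with smaller gaps, while Col1a2, Pdgfra, Pdgfrb and Dcn overlapped between ages in spleen. The further fibroblast and matrix list went the other way, at 26.3 ± 14.2 CPM in young and 38.6 ± 5.41 CPM in aged spleen (SD, n = 2). Col1a1 was 5.12 and 3.48 CPM in young and at most 3.17 CPM in spleen of aged mice. Col3a1 was 6.52 and 3.09 CPM against 2.44 and 2.03 CPM, and neither passed the test. In a platelet list of 7 genes, 1 of 3 tested fell with age in spleen, against 2.17% of all genes called lower. This was Itgb3, which fell by 1.23 ± 0.23 on the log2 scale (edgeR adjusted p = 0.00603). Without Itgb3 the list summed to 9.3 and 5.4 CPM in young spleen and to 4.9 and 7.4 CPM in spleen of aged mice.

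The endothelial members did not behave as a class. Pecam1, the adhesion molecule CD31 that T cells also carry, supplied 67.8% to 99.9% of the counts of the 4 genes. It was 315 and 342 CPM in young spleen, 145 and 176 CPM in spleen of aged mice, 156 and 203 CPM in young muscle, and 168 and 118 CPM in aged muscle. It fell by 1.03 ± 0.20 on the log2 scale with age in spleen (edgeR adjusted p = 0.00662) and, in young mice, had a log2 fold change of -0.87 ± 0.20 in muscle against spleen (0.00543), a call lost without young spleen replicate 2 (adjusted p = 0.0612). The age call in spleen was lost when any of the 4 spleen libraries was left out (adjusted p up to 0.172). Cdh5, the cadherin that defines endothelium, had 0 to 13 counts.

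Without Pecam1 the class was near 0 in young spleen, at 0.47 and 1.16 CPM, and was 8.29 and 11.5 CPM in spleen of aged mice, 14.4 and 19.3 CPM in young muscle, and 32.2 and 55.8 CPM in aged muscle. Tek, the angiopoietin receptor, had 0 and 0 counts in young spleen, 22 and 9 in spleen of aged mice, 25 and 15 in muscle of young mice, and 42 and 48 in aged muscle. With a floor of 3 counts over the young spleen libraries, it was at least 6.93-fold higher in aged spleen (edgeR adjusted p = 0.0158) and at least 14.0-fold higher in young muscle (0.00104). The second call held in all 13 alternatives it was tested under. Tek was also higher in aged muscle than in aged spleen, by 2.06 ± 0.67 on the log2 scale (0.0448), a call lost in 7 of 13 alternatives, and its age call in spleen was lost without young spleen replicate 1, young spleen replicate 2 or aged spleen replicate 1 (adjusted p up to 0.143).

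Emcn, the endothelial sialoglycoprotein endomucin, had 1 and 2 counts in young spleen, 10 and 23 in spleen of aged mice, 8 and 19 in muscle of young mice, and 32 and 81 in aged muscle. The 27 counts of young muscle against 3 of young spleen gave a ratio of 9.43 with a counting interval of 2.90 to 48.6 (edgeR adjusted p = 0.0361). The group means of Tek, Emcn and Cdh5 had the same order, from young spleen through aged spleen and young muscle to aged muscle, and those of Pecam1 did not. A further 13 endothelial genes summed to 10.6 ± 6.77 CPM in young spleen, 15.5 ± 0.877 CPM in spleen of aged mice, 47.2 ± 30.6 CPM in young muscle and 44.9 ± 28.4 CPM in aged muscle (SD, n = 2), and 0 of the 3 tested passed by edgeR with all libraries. Without young muscle replicate 1, with the genes held, there were calls of higher in muscle than in spleen at each age. Young muscle is then 1 library, so the young comparison is not counted here. The aged groups keep 2 libraries each, but their calls appeared only with the estimate of spread of that fit and are not counted.

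Haemoglobin transcripts were highest in aged spleen. Hbb-b1, a beta globin, was 93.2 and 23.2 CPM in young spleen, 132 and 274 CPM in spleen of aged mice, 63.5 and 1.49 CPM in young muscle, and 2.59 and 2.50 CPM in aged muscle. Hba-a1 was 30.7 and 14.3 CPM in young spleen, 66.8 and 83.7 CPM in spleen of aged mice, 21.6 and 0.991 CPM in young muscle, and 0.370 and 0.416 CPM in aged muscle. The 3 globin members together had 113 to 1221 counts in the spleen libraries and 257 in young muscle replicate 1, and 6, 11 and 8 in the other 3 muscle libraries, so they were low but present there.

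In aged mice Hba-a1 had 522 counts in spleen and 2 in muscle, a ratio of 189 with a counting interval of 52.0 to 1562 (edgeR adjusted p = 0.0101). Hba-a2 fell by 5.71 ± 1.39 on the log2 scale (0.0282), from 295 counts to 4, with the split between the 2 genes uncertain as above. Without aged spleen replicate 1, or without either aged muscle library, both calls were lost (adjusted p up to 0.224). In young mice 0 of 4 erythroid genes passed between tissues with all libraries, at adjusted p-values of 0.492 for Hba-a1 and 0.733 for Hbb-b1. Without young muscle replicate 1 both alpha globins and Hbb-b1 were lower in muscle (0.000526, 0.00812 and 0.0131).

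Alas2, which starts haem synthesis in red cell precursors, was ordered like the globins between ages in spleen but did not follow them in muscle. It had 1 and 9 counts in young muscle, 5 and 22 in aged muscle, 8 and 0 in young spleen, and 40 and 27 in spleen of aged mice. In young muscle replicate 1, where the 3 globin members had 257 counts, it had 1. No erythroid member passed for age in spleen with all libraries by edgeR or DESeq2 on 4 tested, against 2.08% and 2.65% of all genes called higher, though the class sum was 96.8 ± 75.2 CPM in young and 331 ± 127 CPM in spleen of aged mice (SD, n = 2). Without young muscle replicate 1, with the genes held, Hba-a1 passed, higher with age, against 3.64% of all genes (edgeR adjusted p = 0.00377 against 0.347 with all libraries), while Hba-a2 and Hbb-b1 had 0.0649 and 0.0663.

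The muscle fibre members were scarce in every library. The 8 genes had 8 to 86 counts per library, summing to 3.73 and 4.63 CPM in young spleen, 9.997 and 21.6 CPM in spleen of aged mice, 34.4 and 29.2 CPM in young muscle, and 18.5 and 25.4 CPM in aged muscle. Atp2a1, the calcium pump of fast fibres, led them with 51 and 17 counts in young muscle, 15 and 15 in aged muscle, 6 and 6 in young spleen, and 2 and 1 in spleen of aged mice. It was higher in young muscle by 2.49 ± 0.81 on the log2 scale (edgeR adjusted p = 0.0395, and 0.279 without young muscle replicate 1). In aged mice 30 counts against 3 gave a ratio of 13.8 with a counting interval of 4.30 to 70.9 (0.0156), a call lost without either aged spleen library or aged muscle replicate 2.

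The members that define mature muscle fibres stayed low even in muscle. Acta1, skeletal actin, had 3 and 9 counts in young and 5 and 2 in aged muscle, and Ckm, muscle creatine kinase, had 3, 0, 0 and 8 in the same order. Myh4, the fast IIB myosin, had 13 and 16 counts in young and 3 and 0 in aged muscle, while Myh2, the IIA myosin, had 2 and 0 against 12 and 13. Myl1 and Mb, a fast myosin light chain and myoglobin, had 2 to 12 counts in the muscle libraries and 0 in both young spleen libraries.

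Myh3, the embryonic myosin that regenerating fibres make, was highest in aged spleen, with 24 and 46 counts, against 0 and 3 in young spleen, 1 and 1 in muscle of young mice, and 1 and 3 in aged muscle. Its edgeR adjusted p between aged tissues was 0.0524, and 0.0267 without young muscle replicate 1. A further list of 20 fibre genes had higher sums, which include the large genes Neb and Ttn. It summed to 99.68 and 94.98 CPM in young spleen and 214.1 and 197.1 CPM in aged spleen. The sum was 194.2 and 271.5 CPM in young muscle and 265.9 and 304.1 CPM in aged muscle. Without Neb, its gene of most counts, the list summed to 69.88 to 206.6 CPM. That sum still holds Ttn, at 17.2 CPM in young muscle replicate 1 and 22.4 to 109.7 CPM in the other libraries. Of 11 tested genes in the further fibre list, 2 rose with age in spleen, against 2.08% of all genes called higher. These were the large genes Ttn and Neb, with rises of 1.83 ± 0.42 and 1.43 ± 0.24 on the log2 scale (edgeR adjusted p = 0.0355 and 0.00318).

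The B cell members were led by Cd79b, whose libraries overlapped between the groups in each comparison of ages or tissues. Cd79b, a signalling chain of the B cell receptor, was 44.7 and 49.8 CPM in young spleen, 29.0 and 55.0 CPM in spleen of aged mice, 28.4 and 50.5 CPM in young muscle, and 41.0 and 35.8 CPM in aged muscle. Its partner Cd79a had 13 and 2, 40 and 28, 12 and 4, and 5 and 3 counts in the same order. Ms4a1, which encodes CD20, had 0 to 19 counts. Cd79a took 1.53% to 25.2% of the counts of the pair, and 0 of 3 genes passed in any of the 5 comparisons by edgeR, with 1 at an unadjusted p under 0.05, lower in aged muscle than in aged spleen, against 16.5% of all genes. A further B and plasma cell list had mean sums of 524 and 734 CPM in young and aged spleen. In young and aged muscle they were 370 and 344 CPM. Without Ighm, its gene of most counts, these were 92.57, 179.8, 113.5 and 105.9 CPM. Of 10 tested, 4 were lower in aged muscle than in aged spleen, against 9.27% of all genes, and 0 higher, against 9.57%. In young mice 2 were lower in muscle, against 10.9%, and 1 higher, against 11.4%. With age in spleen 1 was higher, against 2.08%.

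Per kilobase of exon, Ctss was the most abundant member with a known length in each group, at 157 CPM per kb in young spleen, 189 in spleen of aged mice, 134 in muscle of young mice and 110 in aged muscle. Cst3 followed in muscle, at 67.5 and 63.1 CPM per kb in young and aged mice, and Pecam1 was 22.9 to 52.8 CPM per kb. Cdh5 was 0.0459 to 0.820 CPM per kb. Genes of one class thus spanned more than 10 times in level in the same libraries, and the part of young muscle replicate 1, of depth and of carried-over cells in these differences was not tested.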

How the data were processed

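RNA from 8 libraries of sorted Tregs was amplified by in vitro transcription and by PCR for library preparation, per the labels' protocols, with no molecular identifiers described. The deposited values are raw read counts by gene symbol, in 1 table that the authors left unnormalized. Per the submitters' processing notes, SAMtools 0.1.19, HTSeq, Picard, TopHat and TopHat2 were used with mm10. The sources used here give neither the annotation nor the strand setting.

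Counts were tested in R 4.3.3 with edgeR 4.0.16: filterByExpr on the 4 groups, TMM scaling, and 1 robust quasi-likelihood model of all 8 libraries, two-sided, with Benjamini-Hochberg adjustment over 14772 genes at 0.05. CPM used TMM-scaled library sizes. Standard errors were taken as the log2 fold change over the root of the F statistic. Ratios with a counting interval are exact at 95%. Called and not overlapping mean adjusted p under 0.05 and separate ranges. The steps were tested on simulated data. DESeq2 1.42.0, library-size scaling, no filter, a replicate block, fits of only the groups compared and leaving out each library were alternatives. Without young muscle replicate 1 with genes held, and without it and aged muscle replicate 2 together, were chosen after seeing the data.

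The members and all lists were chosen with earlier results of these data known. By the naming rule every member may be named, as may the 3 genes of smallest p in each other list where 1 passed. The rule gave fold changes for members past the threshold with all libraries or in an alternative. The text and the tables of alternatives give them only for those past it with all libraries, a narrowing made after the values were seen, and the others are given by counts, CPM or adjusted p. Positions are from GENCODE M21, matched for 44 members, and Hbb-b1 has none there.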

Additional observations from a re-analysis of the deposited data

Results flagged for a closer look

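Cybb, Fcer1g and Tyrobp were singled out because their age effects differed between tissues in a test of the difference itself (edgeR quasi-likelihood test, muscle minus spleen, log2 scale). The difference was -1.77 for Cybb, which was higher in both aged than in both young spleen libraries and, in muscle, was 54.4 and 34.7 CPM in young and 36.6 and 35.0 CPM in aged mice. It was -6.53 for Fcer1g and -5.93 for Tyrobp, both of which had 16 counts or more in each young muscle library and 5 or fewer in each aged one. Fitted values of this size rest on counts at or near 0 in aged muscle and are not bounds. All 3 calls were lost without young muscle replicate 1, and equally when aged muscle replicate 1 or replicate 2 of either spleen group was left out, and the part of that library's myeloid content in them was not tested.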

How the results depend on the processing

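Counts of calls are limited by 2 libraries a group and by members with few reads. The share of all genes called moved between settings too, so no count of members below is read as a result about the members. For both tissue comparisons, the shares with genes held are given above. Between aged tissues with only the groups compared, 14.5% of all genes were called higher and 11% lower. Where a library is left out, its group holds 1 library. Scaling by library size alone left every count of members and of genes within 1.5 times.

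For age in muscle, genes called numbered 298 with all libraries, 497 by DESeq2, 748 with no filter, 479 with a replicate block, 49 with only the groups compared, 147 without young muscle replicate 1 with genes held, and 154 to 1067 when single libraries were left out. Members called lower numbered 2, and 7 by DESeq2, 13 with no filter, 0 with only the groups compared, 0 without young muscle replicate 1 with genes held, 0 without it and aged muscle replicate 2 together, and 0 to 20 when single libraries were left out.

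For age in spleen, genes called numbered 627, and 1039 with no filter, 1840 with only the groups compared, 998 without young muscle replicate 1 with genes held, 1933 without both doubted libraries, and 155 to 1047 over single libraries. Members higher numbered 2, and 4 with only the groups compared, 6 without both and 0 to 5 over single libraries. Members lower numbered 1, and 2 in each of these settings and with genes held, with 0 to 2 over single libraries.

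For the difference of age effects, genes called numbered 372, and 670 with no filter, 905 without both and 159 to 689 over single libraries. Members lower numbered 3, and 5 by DESeq2, 10 with no filter, 0 with genes held, 1 without both and 0 to 17 over single libraries. Members higher numbered 0, and 1 with genes held, 2 without both and 0 to 1 over single libraries.

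For tissue in young mice, genes called ranged from 1483 to 3528 over single libraries. Members higher numbered 11, and 17 with no filter, 3 with genes held, 3 without both and 1 to 22 over single libraries. Members lower numbered 1, and 5 with genes held, 6 without both and 0 to 5 over single libraries. For tissue in aged mice, genes called ranged from 974 to 3944. Members higher numbered 3, and 6 with the replicate block, 5 with only the groups compared, 5 with genes held and 0 to 6 over single libraries. Members lower numbered 4, and 7 with only the groups compared, 8 without both and 0 to 10 over single libraries.

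Leaving out the member of highest count moved the aged over young ratio of summed levels in muscle to 2.61 (endothelial), 0.923 (muscle fibre) and 0.684 (B cell), and in spleen to 0.375 (stromal), 12.2 (endothelial), 9.48 (muscle fibre) and 2.5 (B cell). Endothelial means with all members were 196.6 and 186.5 CPM in young and aged muscle. In spleen they were 329.7 and 170.5 CPM, so this class turned direction in both tissues. The other ratios listed kept theirs. A ratio counted as moved if its log2 change reached the spread of the duplicates. That spread was wide in young muscle for the myeloid and stromal classes, so shifts there could hardly count. The cause of these shifts was not tested beyond the libraries and genes named.

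Replicate numbers are not tied to animals by the labels, so libraries share only a number. Deviations of same-numbered libraries from their group means correlated across genes at -0.065 to 0.256. The replicate block moved no other count of members by over 1.5 times.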

Other observations

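Cd74, the invariant chain of MHC class II, which B cells and macrophages also carry, rose with age in both tissues. It went from 266 counts in young to 1308 in aged muscle, higher by 2.14 ± 0.24 on the log2 scale (edgeR adjusted p = 0.000219), and from 192 to 2156 counts in spleen, higher by 2.91 ± 0.24 (1.22e-05). Of 9 tested genes in a list of dendritic cell and MHC class II markers, it was the 1 that passed in each tissue, against 1.14% of all genes called higher in muscle and 2.08% in spleen.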
